A study of Mus musculus with 8 samples.

Results

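The E2F family of transcription factors and the pocket proteins that bind them were described on 8 single-colour arrays of cultured smooth muscle cells from the mouse aorta, which in the vessel contract and set its width. The genes were E2f1 to E2f8, Rb1 and Rbl1, which make up 10 of the 24704 genes measured. They were matched by gene symbol, and all 10 were present with 1 probe set each. The family was chosen from earlier results of these same arrays. In those results E2f8 ranked second of all genes by signed log2 fold change, counted from the highest in AdN5. The differences between the groups given for the family are therefore a description and carry no test. On 4 arrays the cells carried the adenovirus titled AdN5, labelled as overexpression of NFAT5, a transcription factor of the osmotic stress response. On the other 4 arrays they carried the adenovirus titled AdPl, labelled as control. Both groups had received virus for 24 h and then cholesterol at 10 µg/ml for 72 h before RNA was taken, so neither group was free of virus or of cholesterol, and both were grown with serum. The sources used here give neither the promoter nor the dose of the viruses. They do not say whether replicates were separate cultures, so the errors measure the spread between these arrays, which may be technical.

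E2F proteins bind the promoters of genes needed to copy DNA and to divide. In resting cells the pocket proteins pRB, p107 and p130 hold them in check, and cyclin-dependent kinases release them at the passage from G1 to S phase by phosphorylating the pocket proteins. E2F1, E2F2 and E2F3 are the classical activators. E2F4 and E2F5 act mainly as repressors together with p107 and p130, and E2F6 represses through polycomb complexes without binding a pocket protein. E2F7 and E2F8, the atypical members, carry a pair of DNA-binding domains, need no DP partner and repress E2F targets late in S phase. Several genes of the family are themselves targets of E2F. Smooth muscle cells of the vessel wall are mostly quiescent and re-enter the cell cycle in culture or after injury.

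Promoter sequences are shown for the atypical pair, which differed most between the groups, and short stretches for the other members whose promoter held an E2F octamer. The sequences come from RefSeq windows of the build GRCm38.p6 that run from 250 bases before to 50 bases after a transcript start, 300 bases in all, printed on the strand of the gene. Windows were found for 7 of the 10 genes, and E2f4, E2f5 and Rb1 were not analysed here in this respect. The E2F octamers searched on both strands were TTTCCCGC, TTTGGCGC, TTTCGCGC and TTTGCCGC. The hexamers of the cell cycle homology region (CHR), an element of genes active in G2 and M phase, were TTTGAA and TTCGAA. No octamer overlapped a hexamer in the windows of the family. Positions count the first base of a match from the transcript start. The E2f7 window lay at chr10:110745189-110745488 on the plus strand, and the capitals mark the octamer TTTCCCGC read on the opposite strand, at position -198. The E2f8 window lay at chr7:48881547-48881846 on the minus strand. It held none of the octamers, and its capitals mark the CHR hexamer TTTGAA read on the opposite strand, at position -20.
E2f7: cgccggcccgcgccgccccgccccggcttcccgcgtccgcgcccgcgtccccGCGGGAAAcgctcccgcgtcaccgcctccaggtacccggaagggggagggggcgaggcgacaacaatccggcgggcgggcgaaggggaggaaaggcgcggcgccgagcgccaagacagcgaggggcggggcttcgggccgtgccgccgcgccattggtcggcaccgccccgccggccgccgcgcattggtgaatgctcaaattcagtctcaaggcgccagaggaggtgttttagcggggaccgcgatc
E2f8: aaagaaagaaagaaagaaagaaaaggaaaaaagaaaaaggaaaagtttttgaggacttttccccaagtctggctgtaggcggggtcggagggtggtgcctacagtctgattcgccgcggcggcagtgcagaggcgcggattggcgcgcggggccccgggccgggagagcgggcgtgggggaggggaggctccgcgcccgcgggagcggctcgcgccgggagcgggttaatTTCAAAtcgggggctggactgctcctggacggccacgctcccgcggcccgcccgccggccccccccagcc

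An octamer also stood in a window of E2f2 (chr4:136172297-136172323, plus strand, position 39), E2f3 (chr13:29986051-29986090, minus strand, position -11) and Rbl1 (chr2:157204529-157204568, minus strand, position -18). In these stretches the capitals mark the octamer.
E2f2: atttggcggcatatagTTTGGCGCtaa
E2f3: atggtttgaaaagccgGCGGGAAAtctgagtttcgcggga
Rbl1: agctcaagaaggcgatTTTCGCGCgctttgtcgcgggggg
The windows of E2f1 and E2f6 held none of the octamers. The E2f1 window reads as coding sequence of that gene, so it lies at a start inside the gene. It says nothing of the promoter upstream of the E2f1 coding sequence. With the E2f1 window counted, 4 of the 7 genes with a window had an octamer, against 3.25% of the 18379 measured genes with a window. A CHR hexamer stood in windows of 3 of the 7 (E2f2, E2f3 and E2f8), against 19.75% of the measured genes with a window. A gene with several windows was counted if any of them held a match. For E2f2 the hexamer and the octamer lay in different windows, and the window with the hexamer opens with coding sequence. A match to these letters is not evidence of binding, and a window without them says nothing of sites elsewhere.

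The targeted gene and the composition of the cultures were examined before the family. Nfat5 stood at 7.06, 6.95, 6.98 and 6.88 on the log2 scale on the 4 AdN5 arrays, and at 7.06, 7.22, 7.11 and 7.25 on the 4 AdPl arrays. Its transcript was thus not higher under the label of overexpression (log2 fold change -0.19 ± 0.078, SE). Every direction below rests on the array titles, and the sources used here do not say whether the probe set can read a viral transgene. On the second principal component (17.1% of the variance) AdN5 replicate 4 (-24.7) and AdPl replicate 3 (-14.2) stood apart at one end, and AdN5 replicate 3 (19.5) lay farthest at the other. Values without the pair at the low end, called the pair that stood apart, and without AdN5 replicate 3 are given below. Of 9 smooth muscle markers Acta2 was the brightest (11.74 in AdN5, 12.04 in AdPl). Tagln (8.46 and 8.39), Smtn (7.65 and 7.64), Cnn1 (6.60 and 6.27), Myh11 (5.32 and 5.32) and Lmod1 (5.22 and 5.05) followed. Myocd, Mylk and Des were dim in both groups, meaning that their mean lay under 3.76, the median of all values on an array.

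E2f8, a repressor of E2F targets, showed the largest difference of the family. Its log2 values were 5.17, 5.26, 5.57 and 4.86 on the AdN5 arrays and 4.20, 3.84, 3.83 and 3.74 on the AdPl arrays. The groups did not overlap. The lowest AdN5 array, replicate 4, stood 0.66 above the highest AdPl array, replicate 1. The means were 5.21 ± 0.30 in AdN5 and 3.90 ± 0.20 in AdPl (SD, n = 4 each), a log2 fold change of 1.31 ± 0.16 (SE from limma) or 2.48-fold. Without AdN5 replicate 4 and AdPl replicate 3 it was 1.40 ± 0.16, and without AdN5 replicate 3, the highest array, it was 1.19.

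E2f7, the closest relative of E2f8, differed in the same direction. It stood at 4.38, 4.78, 4.58 and 4.46 on the AdN5 arrays and at 3.80, 3.71, 3.76 and 3.87 on the AdPl arrays. Again the groups did not overlap, and a gap of 0.51 separated AdN5 replicate 1 from AdPl replicate 4. The means were 4.55 ± 0.17 in AdN5 and 3.78 ± 0.068 in AdPl (SD, n = 4 each). The log2 fold change was 0.77 ± 0.097 (SE), or 1.70-fold, and without the pair that stood apart it was 0.79 ± 0.12. Both atypical genes were near the median probe set in the AdPl arrays, where E2f7 lay below it on 2 arrays and E2f8 on 1. RMA, the method behind the deposited values, shrinks fold changes near background, and how far these are shrunk is not known. In RNA from whole cultures, more cells of a kind and more RNA per cell cannot be told apart.

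**Figure D1:**
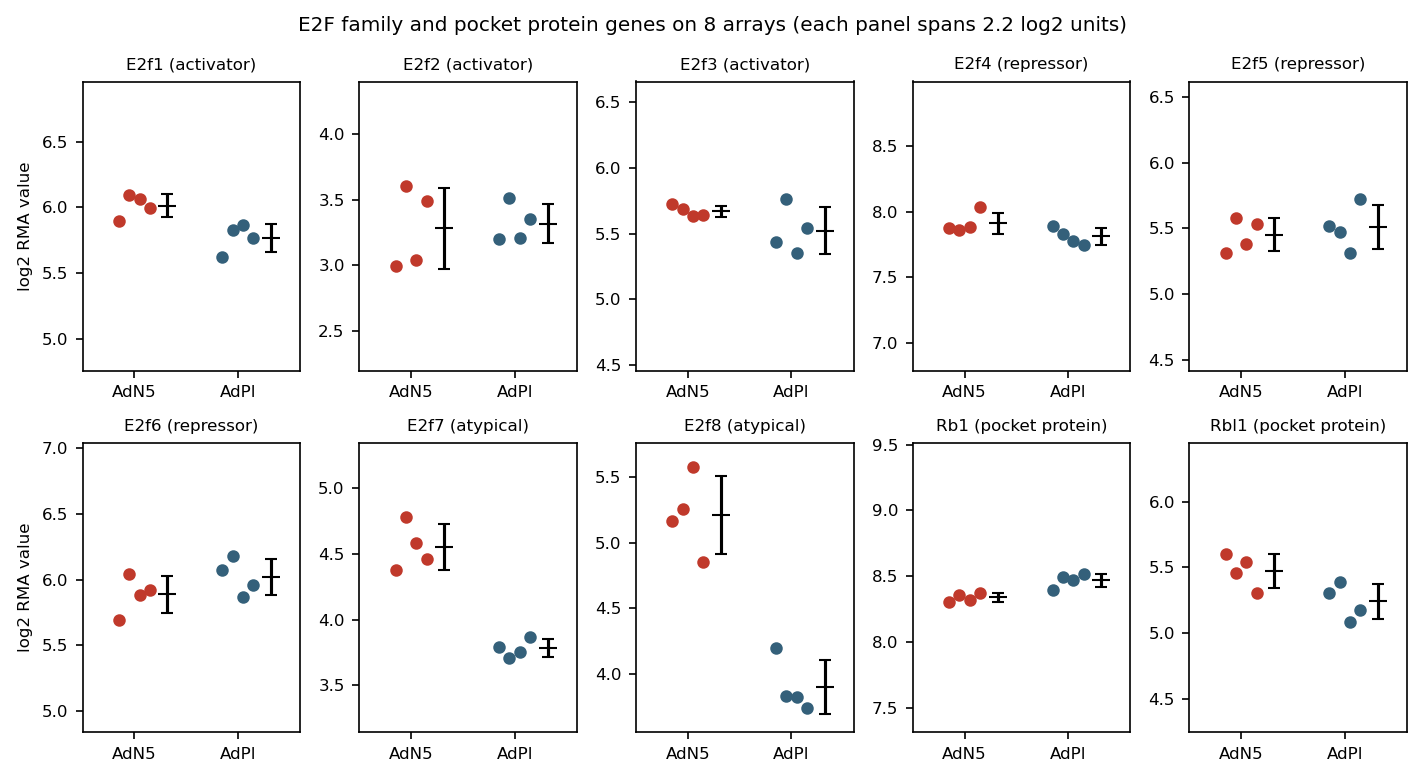
Log2 RMA values of the 10 genes on the 4 AdN5 arrays (left in each panel) and the 4 AdPl arrays (right), replicates 1 to 4 from left to right, with the mean and SD of each group in black. The E2f8 values run from 4.86 to 5.57 in AdN5 and from 3.74 to 4.20 in AdPl, and the E2f7 values also separate, while the groups of E2f2, E2f3, E2f4, E2f5, E2f6 and Rbl1 overlap.

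Among the activators the differences were small. E2f1, which drives entry into S phase, stood at 5.90, 6.09, 6.06 and 5.99 on the AdN5 arrays and at 5.62, 5.83, 5.86 and 5.77 on the AdPl arrays. Its groups were separate by only 0.034, between AdN5 replicate 1 and AdPl replicate 3, and its log2 fold change was 0.24 ± 0.084 (SE). E2f3 had values of 5.72, 5.69, 5.64 and 5.64 in AdN5 and of 5.43, 5.76, 5.35 and 5.54 in AdPl. The groups overlapped because AdPl replicate 2 exceeded every AdN5 array, and the log2 fold change was 0.15 ± 0.096. The AdN5 arrays of E2f3 agreed closely, with an SD of 0.042, against an SD of 0.18 in the AdPl arrays. E2f2 was dim, below the array median on all 8 arrays. It stood at 2.99, 3.60, 3.04 and 3.49 in AdN5 and at 3.20, 3.51, 3.21 and 3.35 in AdPl, with a log2 fold change of -0.037 ± 0.15 whose sign changed with the setting.

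The repressors of the pocket protein branch and E2f6 overlapped between the groups. E2f4, the E2F most active in quiescent cells, stood at 7.88, 7.86, 7.88 and 8.03 in AdN5 and at 7.89, 7.83, 7.78 and 7.75 in AdPl, a log2 fold change of 0.10 ± 0.075 (SE). Its highest value came from AdN5 replicate 4, one of the pair that stood apart, and without that pair the change was 0.050 ± 0.084. E2f5 ranged from 5.31 to 5.58 in AdN5 and from 5.31 to 5.72 in AdPl (log2 fold change -0.055 ± 0.10). E2f6 ranged from 5.70 to 6.04 in AdN5 and from 5.87 to 6.18 in AdPl (-0.13 ± 0.10), with AdN5 replicate 1 the lowest array. Of these 3 genes 1 was higher and 2 were lower on average, each by no more than 0.13.

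The pocket protein genes differed in opposite directions. Rb1, the retinoblastoma tumour suppressor gene, stood at 8.31, 8.36, 8.32 and 8.37 in AdN5 and at 8.40, 8.49, 8.47 and 8.52 in AdPl. Every AdN5 array was below every AdPl array, with a gap of 0.027, and the log2 fold change was -0.13 ± 0.068 (SE). Rbl1, which encodes p107 and is itself a target of E2F, stood at 5.60, 5.45, 5.54 and 5.30 in AdN5 and at 5.31, 5.39, 5.09 and 5.18 in AdPl. The highest AdPl array, replicate 2, exceeded the lowest AdN5 array, replicate 4, so the groups overlapped, and the log2 fold change was 0.23 ± 0.098. The third pocket protein gene Rbl2, encoding p130, and the genes of the DP partners were measured as a separate list of 3. Their log2 fold changes were 0.099 ± 0.075 for Rbl2, 0.0023 ± 0.097 for Tfdp1 and -0.092 ± 0.096 for Tfdp2. The limma fit called 0 of these 3 genes, and 0 had an unadjusted p under 0.05. The shares of all genes, given below, are small for a list of this size.

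**Figure D2:**
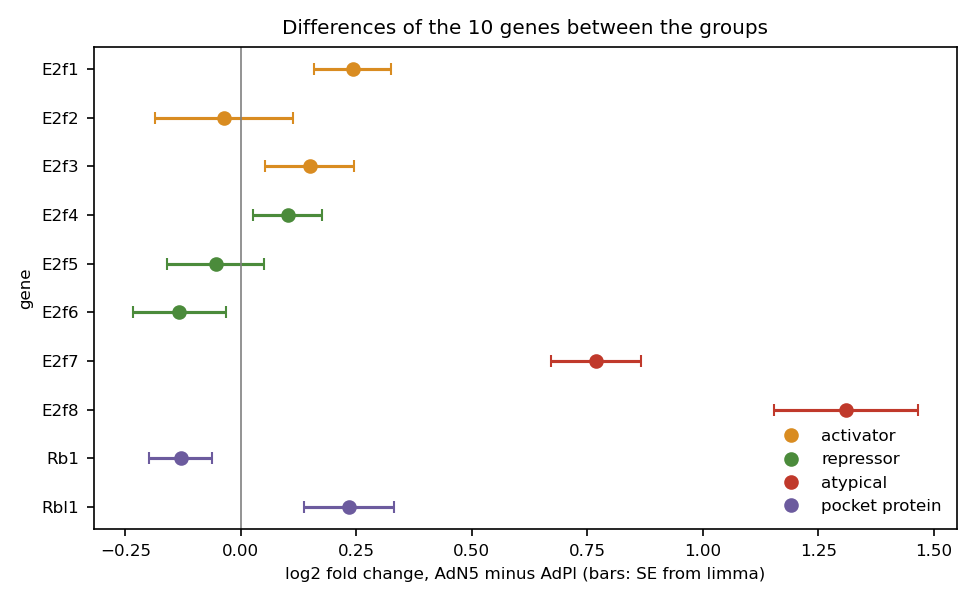
Log2 fold changes (AdN5 minus AdPl) of the 10 genes, coloured by class, with standard errors from limma as bars. The atypical E2f7 (0.77) and E2f8 (1.31) lie to the right of the other 8 genes, which range from -0.13 (E2f6) to 0.24 (E2f1).

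By class, the median log2 fold change was 1.04 for the 2 atypical genes, 0.15 for the 3 activators, -0.055 for the 3 other repressors and 0.051 for the 2 pocket protein genes. The median of all genes was 0.0042. A gene was called where its Benjamini-Hochberg adjusted p over all genes was under 0.05 in limma. By that rule 2 of the 10 genes, E2f7 and E2f8, were called higher in AdN5, as were 0.364% of all genes, and 0 were called lower, as were 0.413% of all genes. At an unadjusted p under 0.05, 4 of the 10 were higher, as were 6.24% of all genes, and 0 were lower, as were 6.29% of all genes. Groups were separate and higher for 3 of the 10 (E2f1, E2f7 and E2f8), as for 4.22% of all genes, and separate and lower for Rb1 alone, as for 4.56% of all genes. Since the family was picked from this contrast, nothing is read from these shares. Without the pair that stood apart, E2f8 was called and E2f7 was not.

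Genes regulated by E2F at the passage from G1 to S phase were mostly higher in the AdN5 arrays. This list, like the other lists here, was chosen with earlier results of these data known. Its counts and shares are therefore a description. The 47 measured genes of this list had a median log2 fold change of 0.29, against 0.0042 for all genes, and 42 were above 0. Called higher were 6 of the 47, against 0.364% of all genes, and the share of all genes called lower was 0.413%. The 6 were Ccne2 and Ccne1, encoding cyclins E2 and E1, Dtl, and Mcm6, Mcm4 and Mcm3, subunits of the replicative helicase. Dtl encodes a substrate receptor of the CUL4 ubiquitin ligase that degrades replication factors. None of the 47 was called lower by limma, and at an unadjusted p under 0.05 there were 24 higher and 0 lower, beside 6.24% and 6.29% of all genes. Dtl stood at 4.74, 4.80, 4.82 and 4.51 in AdN5 and at 3.91, 3.77, 3.76 and 4.04 in AdPl, a log2 fold change of 0.85 ± 0.099 (SE). Ccne2 stood at 4.98, 5.14, 5.49 and 5.11 in AdN5 and at 4.23, 4.48, 4.30 and 3.97 in AdPl (0.93 ± 0.14). The changes of the other called genes were 0.60 ± 0.080 for Mcm6, 0.57 ± 0.098 for Mcm4, 0.54 ± 0.086 for Ccne1 and 0.48 ± 0.075 for Mcm3. The lowest of the list was the checkpoint kinase gene Chek1, at -0.23 ± 0.16 without a call. Of the 47 genes 14 lay below the array median in AdPl, which limits what could be measured for them.

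The count of called G1/S genes depended on the arrays kept and fell whenever 1 array was left out. It was 3, 4, 3 and 5 without AdN5 replicates 1 to 4 and 1, 2, 2 and 2 without AdPl replicates 1 to 4, and 1 without the pair that stood apart. Dtl was called in all 8 fits that left out 1 array, Mcm6 in 6, Ccne2 in 3 and Ccne1, Mcm3 and Mcm4 in 1 each. Calls over all genes fell too, from 192 to between 56 and 88 with 1 array left out. The median log2 fold change of the list ranged in those fits from 0.27 without AdN5 replicate 3 to 0.36 without AdN5 replicate 4. That median was computed over genes that share the same arrays.

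Genes of G2 and M phase, which B-MYB and FOXM1 switch on after the E2F wave, showed a like pattern. Their median log2 fold change was 0.29 over 24 measured genes, of which 22 were above 0. This list too was chosen with earlier results known, so its counts are a description. Of the 24 genes 8 lay below the array median in AdPl, which limits what could be measured for them. Ccna2, encoding cyclin A2, and Mki67, the proliferation antigen Ki-67, were called higher and 0 were called lower by limma. Among all genes the called shares were 0.364% in the higher and 0.413% in the lower direction. At an unadjusted p under 0.05, 12 were higher and 0 lower, beside 6.24% and 6.29% of all genes. Ccna2 stood at 5.47, 5.29, 5.92 and 5.19 in AdN5 and at 4.55, 4.75, 4.57 and 4.65 in AdPl (log2 fold change 0.84 ± 0.15, SE). Mki67 stood at 5.65, 5.40, 5.19 and 5.40 in AdN5 and at 4.87, 4.85, 4.78 and 4.68 in AdPl (0.61 ± 0.10). At the lower end was Prc1, a spindle midzone protein gene, at -0.050 ± 0.25. The calls were 0, 0, 2 and 1 without AdN5 replicates 1 to 4, and 0 without each AdPl replicate in turn and without the pair that stood apart. Ccna2 was called in 2 and Mki67 in 1 of the 8 fits that left out 1 array.

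**Figure D3:**
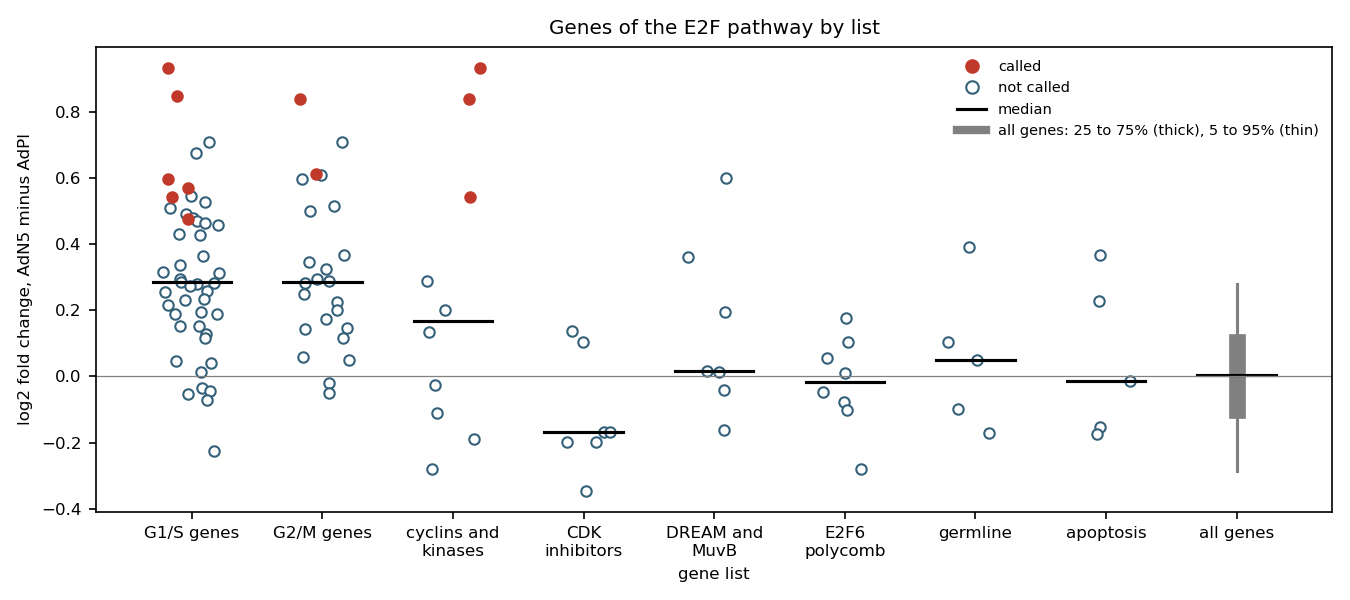
Log2 fold changes (AdN5 minus AdPl) of the measured genes of 8 pathway lists, filled red where called by limma, with list medians as black lines and the distribution of all 24704 genes at the right. The medians of the G1/S and G2/M lists both stand at 0.29 and that of the CDK inhibitors at -0.17, against 0.0042 for all genes.

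Regulators upstream of the pocket proteins were mixed. Of the 10 cyclins and kinases that phosphorylate them, Ccne2, Ccna2 and Ccne1, all members of the lists above, were called higher. None of the 10 was called lower. The shares of all genes called were 0.364% in the higher and 0.413% in the lower direction. Unadjusted p values under 0.05 were reached by 4 higher genes and 1 lower gene of this list, beside 6.24% and 6.29% of all genes. The count of called genes in this list was 1, 1, 2 and 1 without AdN5 replicates 1 to 4. It was 0, 1, 0 and 0 without AdPl replicates 1 to 4, and 0 without the pair that stood apart. The D-type cyclins, which start the phosphorylation of pRB, gave 0.29 ± 0.067 for Ccnd2, -0.11 ± 0.089 for Ccnd1 and -0.19 ± 0.087 for Ccnd3, with 0 called. Cdk6, a partner of these cyclins, had the lowest value of the list at -0.28 ± 0.073. The 7 CDK inhibitor genes had a median of -0.17, with 0 called by limma. At an unadjusted p under 0.05, 0 were higher and 3 lower, beside 6.24% and 6.29% of all genes. The 7 genes ran from Cdkn1a, encoding p21, at 0.14 ± 0.070 to Cdkn2a, which encodes p16 and p19ARF, at -0.35 ± 0.087.

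Complexes that work with E2F proteins held no called gene, beside 0.364% of all genes called higher and 0.413% called lower. In the DREAM and MuvB list Mybl2, which encodes B-MYB and is a target of E2F, had the highest value of the 7 genes (0.60 ± 0.22). Its groups were barely separate, with the lowest AdN5 array at 4.499 and the highest AdPl array at 4.493. Lin54, the DNA-binding subunit, had the lowest value (-0.16 ± 0.069). The groups of Lin54 were also separate, with the highest AdN5 array at 6.12 and the lowest AdPl array at 6.18. At an unadjusted p under 0.05, 2 of this list were higher and 1 lower, beside 6.24% and 6.29% of all genes. The same shares stand beside the unadjusted counts that follow. Separate and higher groups, as for Mybl2, were found for 4.22% of all genes, and separate and lower groups, as for Lin54, for 4.56%. The 8 genes of the E2F6 polycomb complex had a median of -0.018, from Rnf2 at 0.18 ± 0.085 to Cbx3 at -0.28 ± 0.12, and an unadjusted p under 0.05 was reached by 1 gene, which was lower. The 5 germline genes that E2F6 silences had a median of 0.051 and ran from Tuba3b (0.39 ± 0.21) to Stag3 (-0.17 ± 0.10). None of these 5 had an unadjusted p under 0.05, 3 were dim in both groups, and Tuba3a and Tuba3b are near-identical copies whose probes may not tell them apart. Of the 5 measured apoptosis genes regulated by E2F 0 were called, with 2 higher at an unadjusted p under 0.05, and the ends were Bcl2l11 (0.37 ± 0.12) and Trp73 (-0.17 ± 0.11).

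Markers of other cell types differed between the same groups of arrays. All 12 macrophage markers measured had log2 fold changes above 0 (median 0.25), with Cd14 the lowest (0.11). Adgre1 (0.68 ± 0.083, SE), Laptm5 (0.53) and Cd68 (0.52) were called higher, as none was without the pair that stood apart. Their mean log2 level ranged from 6.14 to 6.33 over the AdN5 arrays and from 5.79 to 5.94 over the AdPl arrays, and 1 of the 12 lay below the array median in both groups. Of 12 fibroblast or adventitial markers 2 were above 0 (median -0.26). Their mean level ranged from 6.15 to 6.32 in AdN5 and from 6.56 to 6.60 in AdPl, and Ly6c1 (-1.24 ± 0.23) was called lower, with Clec3b (0.061) the highest. Of these 12 markers 3 were dim in AdN5, among them Ly6c1 at 2.79, and 2 were dim in AdPl. Endothelial markers had a median of -0.039 over 12 genes and smooth muscle markers one of -0.0012 over 9, and limma called 0 of either. Of the 12 endothelial markers 6 were dim in both groups, which limits what could be measured for them. The ends were Cdh5 (0.35) and Egfl7 (-0.31) for endothelium, and Cnn1 (0.33) and Acta2 (-0.30) for smooth muscle. At an unadjusted p under 0.05 there were 6 higher and 0 lower macrophage markers, and 0 higher and 7 lower fibroblast or adventitial markers. There were 1 higher and 1 lower endothelial marker, and 1 higher and 2 lower smooth muscle markers. Among all genes 6.24% were higher and 6.29% lower at that threshold, while limma called 0.364% higher and 0.413% lower. When single arrays were left out, Adgre1 was called in 8 of 8 fits, Laptm5 and Ly6c1 in 1 each and Cd68 in 0. The part of these cells in the E2F values was not tested.

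How the genes varied among arrays of the same group does not depend on the difference that chose the family. After each group mean was subtracted, the 47 G1/S genes had a median Pearson correlation with E2f8 of 0.37 over the 8 arrays, and 40 of them correlated positively. For the 24 G2/M genes the median was 0.53 with 21 positive, and for all other genes it was -0.010 with 49.2% positive. E2f8 deviated most in AdN5 replicate 3 (0.36 above its group mean), AdN5 replicate 4 (0.36 below) and AdPl replicate 1 (0.30 above). AdN5 replicate 3 and AdPl replicate 1 lay farthest from the median deviation of E2f8 over the 8 arrays. With them left out, the medians over 6 arrays were 0.43 for the G1/S genes and 0.43 for the G2/M genes, with 34 and 15 positive. Without AdN5 replicate 4 and AdPl replicate 3 they were 0.25 and 0.39, with 35 and 20 positive. Without AdN5 replicates 3 and 4, the AdN5 arrays in which E2f8 deviated most, they fell to 0.066 for the G1/S genes and 0.040 for the G2/M genes, with 27 and 13 positive. The higher medians thus rest on AdN5 replicates 3 and 4. None of these choices of arrays to leave out was planned, and all were made after seeing the data. The correlations describe few arrays that all genes share. The genes whose deviations were most like those of E2f8 were Olfr519 (0.98), Marchf11 (0.97), Lncenc1 (0.97), Tmem256 (0.97) and Zxdc (0.97), none of them from the pathway lists. Of the 9 other genes of the family 6 correlated negatively with E2f8. The values were -0.74 for Rb1, -0.49 for E2f2, -0.26 for E2f5, -0.18 for E2f3, -0.18 for E2f4 and -0.13 for E2f1. Positive values were found for Rbl1 (0.54), E2f7 (0.29) and E2f6 (0.13).

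The promoter windows of the pathway genes differed by list. An E2F octamer stood in a window of 19 of the 39 G1/S genes with one (48.7%) and of 1 of the 19 G2/M genes (5.26%), against 3.25% of all measured genes with a window. A CHR hexamer stood in 7 of the 39 G1/S genes (17.95%) and in 16 of the 19 G2/M genes (84.2%), against 19.75% of all measured genes. Over all windows of this length 2.27% held an octamer and 19.2% a hexamer. Of the called G1/S genes Mcm6 had 3 octamers, Mcm3 had 2 and Dtl had 1, and Ccne1 had 0. For the other called genes, Ccne2 and Mcm4, no window was found. The lists were made up of known targets, so the octamer describes the lists and is no result of the arrays.

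**Figure D4:**
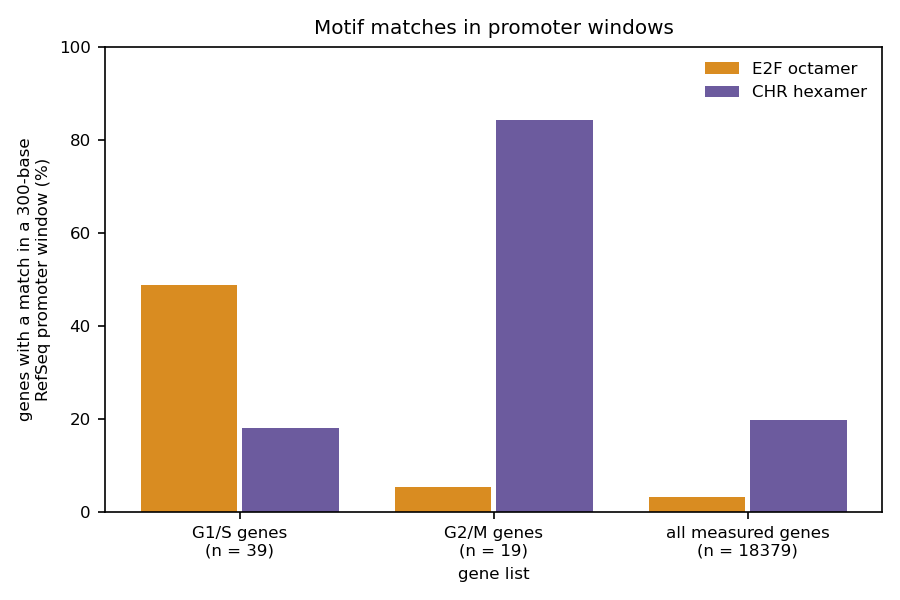
Share of genes with an E2F octamer or a CHR hexamer in a 300-base RefSeq promoter window, for the G1/S list (n = 39), the G2/M list (n = 19) and all measured genes with a window (n = 18379). The octamer is found in 48.7% of the G1/S genes and the hexamer in 84.2% of the G2/M genes.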

How the data were processed

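The authors deposited log2 expression, for which the submitters' processing notes list RMA without a version. That method subtracts background, quantile normalises the arrays and summarises probe sets, so a shift of all genes together cannot be seen. Build and annotation: not given in the sources used here. Of 25428 probe sets 24705 had 1 gene symbol, 0 had several and 723 were unnamed and left out. The brightest probe set per symbol gave 24704 genes. Arrays correlated at 0.990 to 0.992 within AdN5, 0.992 to 0.993 within AdPl and 0.989 to 0.992 between groups, and precision is limited by there being 4 arrays a group.

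Groups came from the titles. The fit covered all genes and used lmFit and eBayes of limma 3.58.1 (R 4.3.3) without covariates, and it was tested on simulated data. Calls needed a Benjamini-Hochberg adjusted p, over all genes, under 0.05. Members, lists, motifs and tests were chosen with earlier results of these data known. Genes were named by rule: the family, Nfat5, up to 6 called genes per direction and both ends of each list, and the 5 genes most like E2f8. Other genes were named after their values were seen. Alternatives were a replicate block, renewed quantile normalisation, median centring, filters on dim genes, a variance trend, array weights, arrays left out and other thresholds. Of 122 pathway list entries 116 were measured. Figures used Python 3.11.15 and matplotlib 3.10.9.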

Additional observations from a re-analysis of the deposited data

Results flagged for a closer look

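The E2f4 value of AdN5 replicate 4, 8.03, lay far from the other 3 AdN5 arrays, which stood between 7.86 and 7.88. The gap divided by the range of the group was above the critical value of Dixon's test for 4 samples. The test was run on the 20 combinations of gene and group, of which 1 passed, and about 1 in 20 does so by chance.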

How the results depend on the processing

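The log2 fold changes ranged from 0.69 to 0.82 for E2f7 and from 1.19 to 1.43 for E2f8 over 16 alternatives. The block, the filters and the variance trend cannot move a difference of group means, and the family was chosen from these values, so the ranges are no support for them. The sign of E2f2 held in 12 of 15 alternatives and that of E2f5 in 15 of 16. Renewed quantile normalisation, median centring, the lower-quartile filter and array weights left the counts of called genes, all genes and lists within 1.5 times of the values reported (192, with 2 of the family, 6 of the G1/S and 2 of the G2/M list). The count over all genes was 497 above the median of expression (11 G1/S), 781 with a variance trend and robust estimation (10 G1/S, 4 G2/M), 110 at a fold of at least 1.5 (3 G1/S), 42 at an adjusted p under 0.01 (1 of the family, 1 G1/S, 0 G2/M) and 30 without both arrays that stood apart (1 of the family, 1 G1/S, 0 G2/M). With 1 array left out in turn it ranged from 56 to 88, with 2 of the family throughout, 1 to 5 G1/S and 0 to 2 G2/M genes. With the replicate block 14 genes were called, 0 of the family, 0 G1/S and 0 G2/M, while at an unadjusted p under 0.05 there were 4, 25 and 12, beside 11.3% of all genes in that fit. The replicate numbers gave no sign of pairing the arrays, since the deviations of same-numbered arrays correlated at 0.055, 0.051, -0.079 and -0.047. Depth cannot be stated for arrays, and E2f2 and part of E2f7 and E2f8 in AdPl were too dim for their differences to be sized well.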
